A study of Mus musculus with 8 samples.

Results

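Esr1, Pgr, Hand2 and Nr2f2 encode the 2 ovarian steroid receptors of the uterus and 2 stromal transcription factors of the progesterone response. They were taken by name from a spatial transcriptome of the mouse uterus, and all 4 were found among the 5828 genes listed in any of the 4 deposited tables, each in all 4 tables. The uteri came from 4 Ezh2cKO and 4 WT females of a mixed C57BL/6 and 129SvEv background, 1 pair from each of 4 litters. Ezh2cKO females had the genotype EZ fl/fl; Prcre/+, with floxed Ezh2 alleles and a single copy of Cre at the progesterone receptor locus, so deletion is limited to cells in which that locus has been active. WT females had the genotype EZ fl/fl, so the controls carried the floxed alleles too, without Cre. Ovaries were removed at postnatal day 71 ± 4 and uteri were collected at day 112 ± 11, which means that all animals lacked ovarian hormones and none is described as hormone-treated. Sections of 10 µm were placed on Visium slides, on which barcoded spots capture messenger RNA in place; a spot takes up RNA from a small patch of tissue with several cells in it.

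Esr1, the estrogen receptor, and Pgr, the progesterone receptor, are ligand-activated nuclear receptors made in both epithelium and stroma of the uterus, and estrogen acting through Esr1 is known to induce Pgr. Progesterone acts on the epithelium in part through the stroma. In the mouse, the epithelial ligand Ihh signals to stromal Nr2f2, an orphan nuclear receptor needed for decidualization, and stromal Hand2, a basic helix-loop-helix factor, restrains fibroblast growth factors that drive epithelial proliferation. Ezh2 is the catalytic subunit of Polycomb repressive complex 2, which methylates histone H3 at repressed genes.

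The deposited tables hold 1 value per gene for each of 4 pools of spots, namely Ezh2cKO epithelium, WT epithelium, Ezh2cKO stroma and WT stroma, each pooled over the animals of a genotype. No values per animal were analysed here, so no spread between animals can be given, and the p-values in the tables may reflect variation among spots only. How spots were named is not given in the sources used here, and a gene used to name them would be no finding between compartments. Pooled counts of unique molecular identifiers (UMIs, captured transcript molecules) were recovered from the tables. Relative to the WT stroma pool, depth was 2.75-fold in Ezh2cKO epithelium, 2.54-fold in WT epithelium and 2.01-fold in Ezh2cKO stroma, and levels below are UMIs scaled to the WT stroma depth. Intervals are 95% exact intervals that cover counting error only. A gene is said to be called where its adjusted p in the authors' deposited table is under 0.05. A gene is listed in a table where its average is above 1 in at least 1 of the pools. Esr1 and Nr2f2 passed this in both pools of every table, whereas Hand2 in both tables with WT stroma and Pgr in the stromal genotype table passed through the higher pool alone. Levels of different genes are not compared, since capture can differ between genes. The deletion was not checked at the Ezh2 transcript, which was not analysed here.

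Markers were set beside the names of the spots. This is no independent check, since the genes used to name the spots are not known. Of 14 epithelial markers, 10 had a value in all pools, among them keratins and claudins, and summed to levels of 3319 in Ezh2cKO epithelium, 3918 in WT epithelium, 1001 in Ezh2cKO stroma and 467 in WT stroma. Of 12 endometrial stroma markers, 11 had one, such as Dcn and Vim, and summed to 3523, 2517, 6674 and 7576 in the same order of pools. Between compartments, 1 of 11 epithelial markers listed in WT and 8 of 12 in Ezh2cKO had an average above 1 in both pools. The other epithelial markers were listed through epithelium alone, so their direction carries that filter. For endometrial stroma markers, 9 of 11 in WT and 10 of 12 in Ezh2cKO were above 1 in both pools. No summed marker stood at 0 in any pool, so stromal transcripts were captured in spots named epithelium and epithelial ones in spots named stroma. By these sums the compartments stood further apart in WT uterus. There the summed epithelial markers were 8.39-fold higher in epithelium than in stroma, against 3.32-fold in Ezh2cKO uterus. This difference carries the listing filter, which was unequal between genotypes. In such spots, fewer cells of a type and less RNA per cell cannot be told apart.

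The 4 genes lie on different chromosomes of GRCm38, and all are annotated as protein-coding. Esr1 spans positions 4611593 to 5005614 of chromosome 10 (plus strand), Pgr 8899833 to 8968611 of chromosome 9 (plus), Hand2 57320983 to 57324633 of chromosome 8 (plus) and Nr2f2 70351944 to 70366735 of chromosome 7 (minus). The promoters of Nr2f2, the member that differed between compartments, and of Pgr, whose promoter drives Cre, are shown as 250 bases before to 50 after the start in RefSeq (GRCm38.p6), at chr7:70366697-70366996 on the minus strand and chr9:8899583-8899882 on the plus strand. Capitals mark CG dinucleotides, which cluster in the CpG islands at which Polycomb complexes are known to gather.
Nr2f2: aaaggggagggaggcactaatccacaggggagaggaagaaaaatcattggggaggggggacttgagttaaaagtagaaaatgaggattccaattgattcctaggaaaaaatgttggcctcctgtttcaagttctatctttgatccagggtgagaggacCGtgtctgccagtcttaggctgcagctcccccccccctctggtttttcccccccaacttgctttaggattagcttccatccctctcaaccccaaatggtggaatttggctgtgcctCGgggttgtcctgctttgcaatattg
Pgr: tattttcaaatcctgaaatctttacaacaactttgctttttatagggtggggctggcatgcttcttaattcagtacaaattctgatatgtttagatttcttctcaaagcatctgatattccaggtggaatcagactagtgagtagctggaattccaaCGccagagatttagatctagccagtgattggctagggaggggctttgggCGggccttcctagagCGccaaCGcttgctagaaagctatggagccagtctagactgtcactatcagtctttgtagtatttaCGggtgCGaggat

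The Nr2f2 window holds 2 CG dinucleotides and the Pgr window 6, against a median of 7 over 32851 RefSeq promoter windows of the same length. CG content outside the windows was not examined, so these counts do not describe the rest of either gene. The window of Hand2 holds 17, and the windows at the 2 listed starts of Esr1 hold 6 and 12. None of these windows has the nuclear receptor half-site AGGTCA on either strand, and 16.3% of all windows do. The E-box CANNTG, a palindrome bound by basic helix-loop-helix factors, occurs 2 times in both windows shown, and 72.3% of all windows hold it. A match here is a match of letters only, and no chromatin data were analysed.

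**Figure D1:**
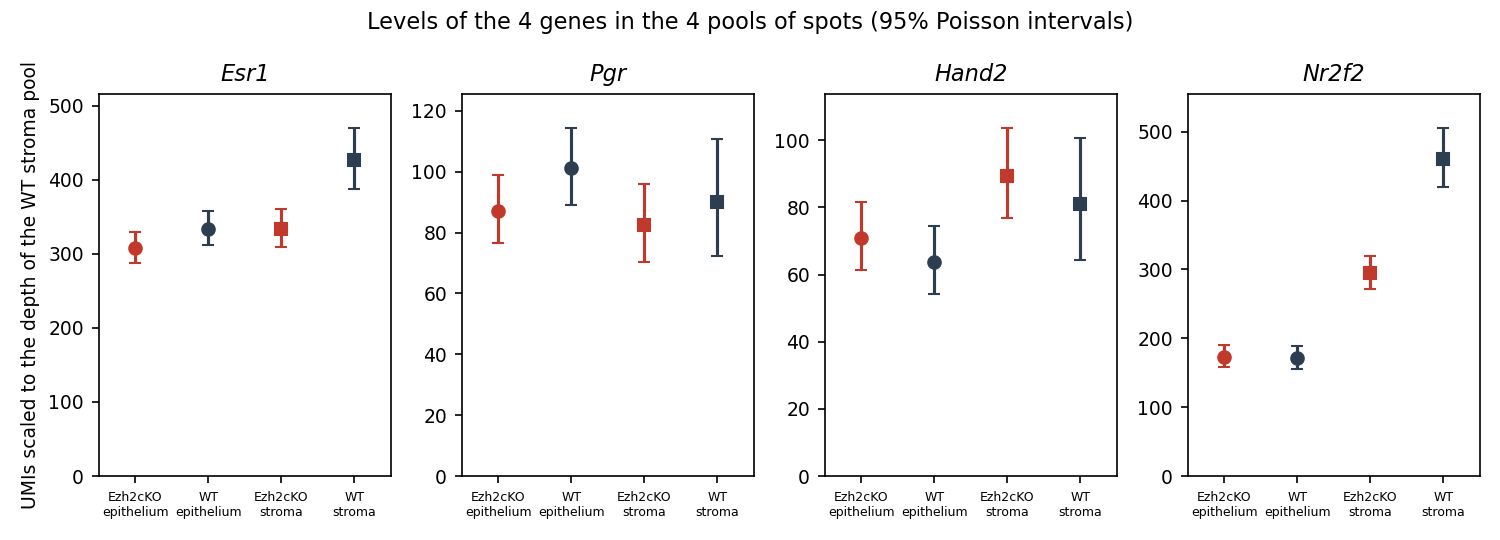
Level of each gene in the 4 pools, as UMIs scaled to the depth of the WT stroma pool (y axis from 0, a scale of its own for each gene); red is Ezh2cKO, dark blue is WT, circles are epithelium and squares stroma, and bars are 95% Poisson intervals. Nr2f2 stands at 461 in WT stroma and 294 in Ezh2cKO stroma, above both epithelial pools, while the intervals of all 4 pools overlap for Pgr.

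Nr2f2 was the member that differed most between the pools, being higher in stroma than in epithelium in both genotypes. It was counted at 478 UMIs in Ezh2cKO epithelium, 436 in WT epithelium, 592 in Ezh2cKO stroma and 461 in WT stroma. Scaled to a common depth, its level was 174 (95% interval 158 to 190) in Ezh2cKO epithelium and 172 (156 to 188) in WT epithelium, against 294 (271 to 319) in Ezh2cKO stroma and 461 (420 to 505) in WT stroma. WT stroma was thus highest, Ezh2cKO stroma came next, and the epithelial pools were lowest with overlapping intervals.

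In Ezh2cKO uterus the Nr2f2 level in epithelium was 0.590 times that in stroma (0.522 to 0.666), and in WT uterus it was 0.372 times (0.326 to 0.425). Stated as stroma over epithelium, the gene was 1.70-fold higher in stroma in Ezh2cKO and 2.69-fold higher in WT. The authors' deposited table lists adjusted p-values of 0.0381 for Ezh2cKO and 1.93e-08 for WT. Nr2f2 was the 1 member of 4 called in each of these comparisons, in which 9.88% of all genes were called in Ezh2cKO and 28.8% in WT. Calls toward stroma made up 4.45% of genes in Ezh2cKO and 15.7% in WT, and calls toward epithelium 5.43% in Ezh2cKO and 13.1% in WT. At an adjusted p under 0.01 the shares called in either direction were 6.38% in Ezh2cKO and 21.8% in WT. For Nr2f2, 6.63% of the genes of the Ezh2cKO table and 5.99% of those of the WT table had a lower ratio of epithelium over stroma.

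Between genotypes, Nr2f2 was not called. Its level in Ezh2cKO epithelium was 1.01 times that in WT epithelium (0.887 to 1.15), for which the authors' deposited table lists an adjusted p of 1. In Ezh2cKO stroma it was 0.638 times that in WT stroma (0.564 to 0.722), a log2 ratio of -0.65, and 6.05% of genes in that table had a lower ratio. The authors' deposited table gives this difference an adjusted p of 0.495, although the counting interval lies below 1. No member was called between genotypes in either compartment, where 0.12% of genes were called in epithelium (0.0688% higher and 0.0516% lower in Ezh2cKO) and 1.51% in stroma (0.756% in each direction). At an adjusted p under 0.01 these shares were 0.0344% in epithelium and 0.84% in stroma.

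The log2 contrast of Nr2f2 between epithelium and stroma was -0.76 in Ezh2cKO and -1.43 in WT, a difference of 0.66 (counting interval 0.41 to 0.92), which was not tested between animals. Smaller contrasts in Ezh2cKO were common. Of 257 genes called higher in WT stroma and listed in the Ezh2cKO table, 252 had the smaller contrast in Ezh2cKO, with a median log2 contrast of -0.74 in Ezh2cKO and -1.24 in WT. Choosing genes by their WT call favours large contrasts in WT. The difference was smaller than that of Nr2f2 for 70.4% of these genes, and the part of the separation of the spots in it was not tested. The stromal proteoglycan gene Dcn had log2 contrasts of -1.33 in Ezh2cKO and -2.13 in WT, and the epithelial keratin gene Krt8 had 1.5 and 3.05. Dcn, at levels of 3774 in Ezh2cKO stroma and 5135 in WT stroma, made up most of the summed endometrial stroma markers. Their sum was 0.881 times as high in Ezh2cKO stroma as in WT stroma, although the median log2 ratio of the 11 was 0.51 and none was called. Measured the same way, 7 summed smooth muscle markers stood at 0.485 times the WT stroma level. Of these, 4 were called lower, against 0.756% of all genes. Only 3 of the 7 had an average above 1 in both stromal pools. The others were listed through WT stroma alone, so their direction carries that filter. The sum of 3 of 9 endothelial markers stood at 0.782 times and that of 4 of 10 immune markers at 0.745 times. The epithelial markers stood at 2.14 times. Of the immune markers, 1 was higher and 3 were lower in Ezh2cKO stroma. No endothelial, immune or epithelial marker was called there. Acta2, the smooth muscle actin gene, had levels of 42.1 in Ezh2cKO epithelium, 112 in WT epithelium, 121 in Ezh2cKO stroma and 337 in WT stroma. The part of these cell types in the Nr2f2 level of stroma was not tested.

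**Figure D2:**
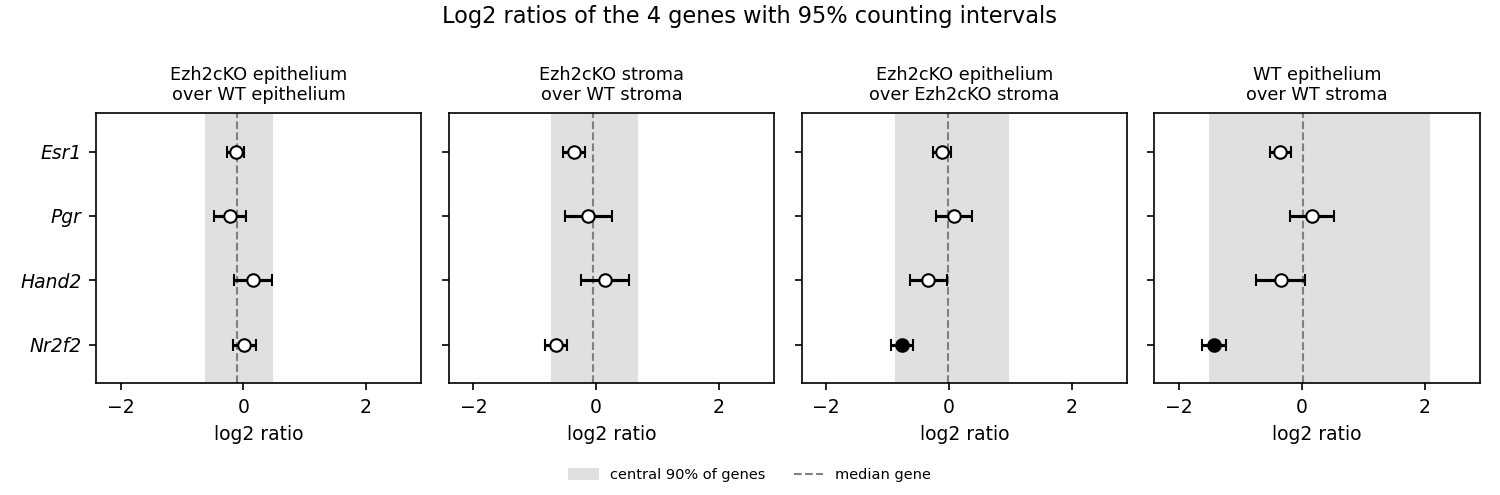
Log2 ratio (x axis) of each gene in the 4 comparisons; bars are 95% counting intervals, filled points were called by the authors' adjusted p, the grey band holds the central 90% of genes of the table and the dashed line is its median gene. Nr2f2 is the 1 filled point in each comparison of epithelium over stroma, at -0.76 in Ezh2cKO and -1.43 in WT, and none is filled between genotypes.

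Esr1 was captured in both compartments and was not called in any comparison. It had 847 UMIs in Ezh2cKO epithelium, 849 in WT epithelium, 672 in Ezh2cKO stroma and 427 in WT stroma. On the common depth these are levels of 307 (287 to 329), 334 (312 to 357), 334 (309 to 360) and 427 (387 to 469) in the same order of pools. WT stroma stood above the other 3 pools, whose intervals overlapped. The level in Ezh2cKO stroma was 0.782 times that in WT stroma (0.692 to 0.885), and in Ezh2cKO epithelium it was 0.921 times that in WT epithelium (0.836 to 1.01). The authors' deposited table lists an adjusted p of 1 for both differences. Epithelium over stroma was 0.921 (0.831 to 1.02) in Ezh2cKO and 0.782 (0.696 to 0.881) in WT, for which the authors' deposited table lists adjusted p-values of 1 and 0.400.

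Pgr, the locus that carries Cre on 1 allele in Ezh2cKO animals, was close to even over the pools. It had 240 UMIs in Ezh2cKO epithelium, 257 in WT epithelium, 166 in Ezh2cKO stroma and 90 in WT stroma, which are levels of 87.1 (76.4 to 98.9), 101 (89.1 to 114), 82.5 (70.4 to 96.1) and 90 (72.4 to 111). All neighbouring intervals in the order of levels overlapped. The level in Ezh2cKO was 0.862 times that in WT in epithelium (0.720 to 1.03) and 0.917 times in stroma (0.705 to 1.20). The authors' deposited table gives an adjusted p of 1 in both. Epithelium over stroma was 1.06 (0.863 to 1.29) in Ezh2cKO and 1.12 (0.88 to 1.44) in WT (the authors' deposited table lists an adjusted p of 1 for both). Whether transcripts of the allele with Cre are counted as Pgr was not tested.

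Hand2 had the fewest UMIs of the members summed over the pools, with 195 in Ezh2cKO epithelium, 162 in WT epithelium, 180 in Ezh2cKO stroma and 81 in WT stroma. Its levels were 70.8 (61.2 to 81.4), 63.7 (54.3 to 74.3), 89.5 (76.9 to 104) and 81.0 (64.3 to 101) in that order. Both stromal values were above both epithelial values, but the intervals of neighbours in the order of levels overlapped. The interval of Ezh2cKO stroma lay above that of WT epithelium. Epithelium over stroma was 0.791 (0.643 to 0.974) in Ezh2cKO and 0.787 (0.599 to 1.04) in WT, for which the authors' deposited table lists adjusted p-values of 0.822 and 0.691. Ezh2cKO over WT was 1.11 (0.897 to 1.38) in epithelium and 1.1 (0.845 to 1.45) in stroma (the authors' deposited table lists an adjusted p of 1 for both).

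The Hand2 gene shares 3251 bases with Hand2os1, a noncoding transcript read from the opposite strand, and whether the counting used strand is not given in the sources used here. Reads in the shared stretch may therefore be split between both genes. Hand2os1 had 175 UMIs in Ezh2cKO epithelium, 150 in WT epithelium, 176 in Ezh2cKO stroma and 126 in WT stroma. Unlike Hand2, it was called between compartments in WT, at 0.468 times the stromal level in epithelium (0.367 to 0.598), for which the authors' deposited table lists an adjusted p of 0.00202. In Ezh2cKO the same ratio was 0.726 (0.586 to 0.900), for which the authors' deposited table lists an adjusted p of 0.673. In the WT comparison both Hand2 and Hand2os1 were listed through stroma alone, so a higher stromal value was a condition of their listing. The difference between Hand2 and Hand2os1 in this contrast was not tested. Nr2f2 also overlaps a noncoding gene on the opposite strand, over 1826 bases, which is not among the genes analysed here.

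Ratios between members within a pool do not depend on how the pools are scaled. There were 3.29 Nr2f2 UMIs per Hand2 UMI in Ezh2cKO stroma (2.78 to 3.91) and 5.69 in WT stroma (4.49 to 7.30). In epithelium the ratio was 2.45 (2.07 to 2.91) in Ezh2cKO and 2.69 (2.24 to 3.24) in WT. The intervals of the stromal pools were thus apart while those of the epithelial pools overlapped. Nr2f2 UMIs per Esr1 UMI were 0.881 (0.787 to 0.985) in Ezh2cKO stroma and 1.08 (0.944 to 1.23) in WT stroma, with overlapping intervals. Esr1 UMIs per Pgr UMI numbered 3.53 in Ezh2cKO epithelium, 3.3 in WT epithelium, 4.05 in Ezh2cKO stroma and 4.74 in WT stroma, and the intervals overlapped between genotypes in both compartments.

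Of 31 other nuclear receptors, 5 were listed in the comparison of WT compartments, and 3 of these were called, all higher in stroma, where 15.7% of all genes were called. Only 2 of the 5 had an average above 1 in both pools, so the others were listed through the pool in which they are higher and the count carries that filter. Of 8 listed in the Ezh2cKO comparison, 5 of them above 1 in both pools, 1 was called, also higher in stroma, against 4.45% of all genes.

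Nr3c1, the glucocorticoid receptor, was called higher in stroma in both genotypes. In both it was listed through stroma alone, so its direction carries that filter. Its levels were 38.5 in Ezh2cKO epithelium, 45.6 in WT epithelium, 82.0 in Ezh2cKO stroma and 128 in WT stroma. The epithelium over stroma ratio was 0.469 (0.364 to 0.602) in Ezh2cKO and 0.357 (0.275 to 0.462) in WT, for which the authors' deposited table lists adjusted p-values of 0.00795 and 8.64e-06. The circadian repressors Nr1d1 and Nr1d2 were called in WT alone, at 0.453 and 0.551. They were at 0.563 and 0.577 in Ezh2cKO, where they were not called. Nr1d1 was listed through stroma alone in both genotypes. None of these receptors was called between genotypes, where 0.12% of all genes were called in epithelium and 1.51% in stroma. In stroma, 4 were listed, 2 of them above 1 in both pools. Nr1d1, listed through WT stroma alone, was at 0.444 times the WT level (0.344 to 0.574), for which the authors' deposited table lists an adjusted p of 0.0646.

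**Figure D3:**
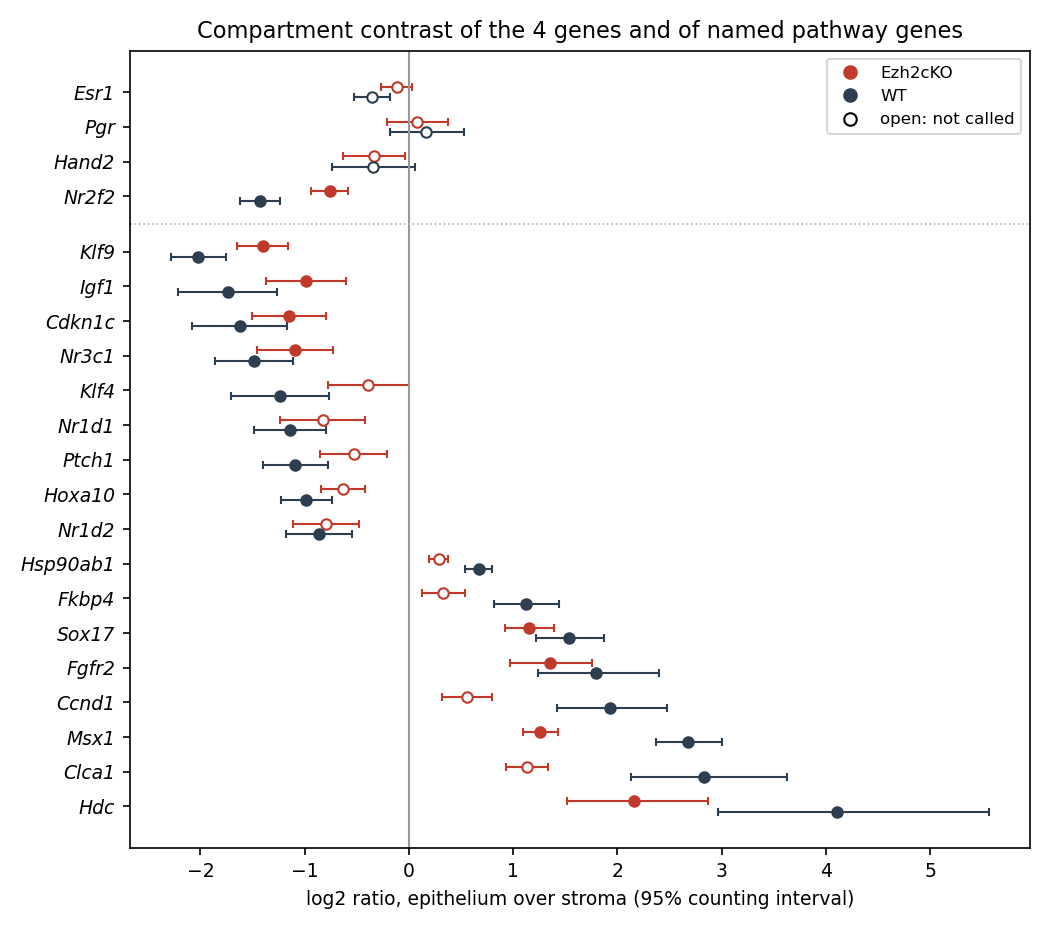
Log2 ratio of epithelium over stroma (x axis) in Ezh2cKO (red) and WT (dark blue) for the 4 genes, above the dotted line, and for 17 named pathway genes listed in both tables; bars are 95% counting intervals and open points were not called. Nr2f2 lies at -0.76 and -1.43, while Pgr lies at 0.08 and 0.17. Nr3c1, at -1.09 and -1.49, was listed through stroma alone in both genotypes. Some of the other pathway genes were also listed through 1 pool alone.

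Among co-regulators and chaperones of steroid receptors, none was called between genotypes. They numbered 22 listed in epithelium and 10 in stroma, where 0.12% and 1.51% of all genes were called. Their median log2 ratio of Ezh2cKO over WT was -0.15 in both compartments, against -0.10 for all genes in epithelium and -0.05 in stroma. Of the listed genes, 19 of 22 in epithelium and 8 of 10 in stroma had an average above 1 in both pools. Between compartments of WT uterus, 2 of 10 were called, both higher in epithelium, a share below the 28.8% of all genes called there. Fkbp4, a cochaperone that helps the progesterone receptor bind its hormone, was 1.26-fold higher in epithelium in Ezh2cKO (1.09 to 1.45) and 2.18-fold in WT (1.77 to 2.71), called in WT (the authors' deposited table lists an adjusted p of 0.000601). Hsp90ab1, the chaperone of unliganded steroid receptors, was 1.22-fold higher in Ezh2cKO and 1.59-fold in WT. None of 14 was called between compartments of the Ezh2cKO uterus, where 9.88% of all genes were.

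Of 20 genes taken as epithelial progesterone targets, 7 were listed in the WT comparison. Of these, 6 were called, 3 in each direction, against 28.8% of all genes. Those called higher in stroma in WT were Klf9, Cdkn1c and Ptch1, despite the name of the list. In Ezh2cKO 6 of 9 were called, again 3 in each direction, against 9.88% of all genes. An average above 1 in both pools was found for 5 of the 7 in WT and 6 of the 9 in Ezh2cKO, and the others were listed through the pool in which they are higher. Msx1, a homeobox gene of uterine epithelium needed for receptivity, had levels of 436 in Ezh2cKO epithelium, 563 in WT epithelium, 182 in Ezh2cKO stroma and 88.0 in WT stroma. Hdc, which makes histamine, was 4.48-fold higher in epithelium in Ezh2cKO (2.87 to 7.29) and 17.2-fold in WT (7.79 to 47.2), where stroma had 6 UMIs. Sox17, an epithelial transcription factor, was 2.22-fold higher in epithelium in Ezh2cKO and 2.9-fold in WT. Klf9, a Krüppel-like factor that acts with the progesterone receptor, was higher in stroma, with an epithelium over stroma ratio of 0.378 (0.319 to 0.447) in Ezh2cKO and 0.246 (0.205 to 0.295) in WT. The cell-cycle brake Cdkn1c was at 0.451 in Ezh2cKO and 0.324 in WT, called in both. Hdc was listed through epithelium alone and Cdkn1c through stroma alone in both genotypes, so their directions carry that filter.

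None of the genes taken as progesterone targets was called between genotypes, out of 10 listed in epithelium and 5 in stroma. The shares of all genes called there were 0.12% and 1.51%. Ihh, the ligand upstream of Nr2f2, falls outside the naming rule and was chosen after its values were seen. It was listed through WT epithelium alone, since its average in Ezh2cKO epithelium is below 1, so a lower value in Ezh2cKO was a condition of its listing and supports nothing. It had 46 UMIs in Ezh2cKO epithelium and 104 in WT epithelium, a ratio of 0.408 (0.282 to 0.583), for which the authors' deposited table lists an adjusted p of 0.637. Ptch1, the hedgehog receptor and a target of the pathway, had levels of 58.8 in Ezh2cKO epithelium, 75.1 in WT epithelium, 85.0 in Ezh2cKO stroma and 160 in WT stroma. In stroma it was 0.531 times the WT level in Ezh2cKO (0.426 to 0.663), for which the authors' deposited table lists an adjusted p of 0.276.

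Among the other stromal mediators of the hedgehog, BMP, HOX and FGF routes, 12 of 29 were listed in epithelium and 5 in stroma. None was called between genotypes, where 0.12% of all genes were called in epithelium and 1.51% in stroma. Hoxa10, a homeobox gene needed for stromal progesterone responses, was called higher in WT stroma, with an epithelium over stroma ratio of 0.645 (0.557 to 0.746) in Ezh2cKO and 0.504 (0.426 to 0.598) in WT. Fgfr2, a receptor for the growth factors that Hand2 restrains, was higher in epithelium by 2.56-fold in Ezh2cKO (1.95 to 3.38) and 3.46-fold in WT (2.35 to 5.27), called in both. For Fgfr2 the authors' deposited table lists adjusted p-values of 0.000843 in Ezh2cKO and 0.000709 in WT. Fgfr2 was listed through epithelium alone in both genotypes, so its direction carries that filter. In all, 3 of 7 genes of this list were called in the WT comparison, 1 higher in epithelium and 2 higher in stroma, and 1 of 9 in Ezh2cKO, which is close to the 9.88% of all genes called there. The WT share compares with 28.8% of all genes, and 3 of the 7 had an average above 1 in both pools. Ptch1, called in WT, is in this list and also in the list of progesterone targets, so the 2 lists overlap. The ligand genes Fgf1, Fgf2, Fgf9, Fgf18 and Bmp2 were not analysed here.

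The 3 pathway genes called between genotypes all came from the list of estrogen-responsive genes. In epithelium 1 of 17 listed was called, Lcn2, which encodes an iron-binding secreted protein, at levels of 30.9 in Ezh2cKO and 102 in WT, a ratio of 0.303 (0.234 to 0.388). The authors' deposited table lists an adjusted p of 0.0367 for Lcn2. The share of all genes called in epithelium was 0.12%. In stroma 2 of 5 were called, both higher in Ezh2cKO, against 1.51% of all genes. Both were listed through Ezh2cKO stroma alone, with an average below 1 in WT stroma, so the direction carries that filter. Clca1, a chloride channel regulator, had levels of 294 in Ezh2cKO epithelium, 121 in WT epithelium, 134 in Ezh2cKO stroma and 17.0 in WT stroma. Ccnd1, cyclin D1, had 155, 133, 105 and 35.0 in the same pools. Between genotypes in stroma the authors' deposited table lists adjusted p-values of 0.00468 for Clca1 and 0.0395 for Ccnd1. Both were also called higher in epithelium in WT, where they were listed through epithelium alone. The summed epithelial markers were 2.14 times as high in Ezh2cKO stroma as in WT stroma. The part of epithelial RNA in the stromal values was not tested. Between compartments, 4 of 13 genes of this list were called in Ezh2cKO, 3 higher in epithelium and 1 in stroma, against 9.88% of all genes, and 7 of 9 in WT, 5 higher in epithelium and 2 in stroma, against 28.8%. Of the genes listed, 6 of 13 in Ezh2cKO and 2 of 9 in WT had an average above 1 in both pools. Wnt7a, an epithelial Wnt ligand, was 4.99-fold higher in epithelium in Ezh2cKO. Igf1, a growth factor made by the stroma, had an epithelium over stroma ratio of 0.504 in Ezh2cKO and 0.301 in WT, and Klf4 had 0.763 and 0.424, Klf4 being called in WT alone. Wnt7a was listed through epithelium alone, and Igf1 and Klf4 through stroma alone in both genotypes, so these directions carry that filter.

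Genes with the most similar profile over the 4 pools were sought for each member among 1560 genes with at least 50 UMIs in every pool. Likeness was the Euclidean distance between log2 levels after each gene's mean over the pools was removed. For Nr2f2 the nearest were Prrc2c (distance 0.10), the T-box factor gene Tbx3 (0.12) and Dpysl2 (0.14), against a median distance of 1.17. Tbx3 had 128 UMIs in Ezh2cKO epithelium, 106 in WT epithelium, 159 in Ezh2cKO stroma and 117 in WT stroma. For Esr1 they were Tln1, Lzts2 and Mycbp2, for Pgr Cttn, Ndufb7 and Ubl3, and for Hand2 Slc9a3r2, Txnip and Nop53, at distances of 0.03 to 0.08. The median distance over all compared genes was 0.52 for Esr1, 0.44 for Pgr and 0.58 for Hand2. With 4 pools, a short distance describes these pools only. Counting error was not taken into the distances. In WT stroma, for example, Pgr had 90 UMIs with an interval of 72.4 to 111. The rank of genes at such short distances may therefore lie within counting error, which was not tested.

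**Figure D4:**
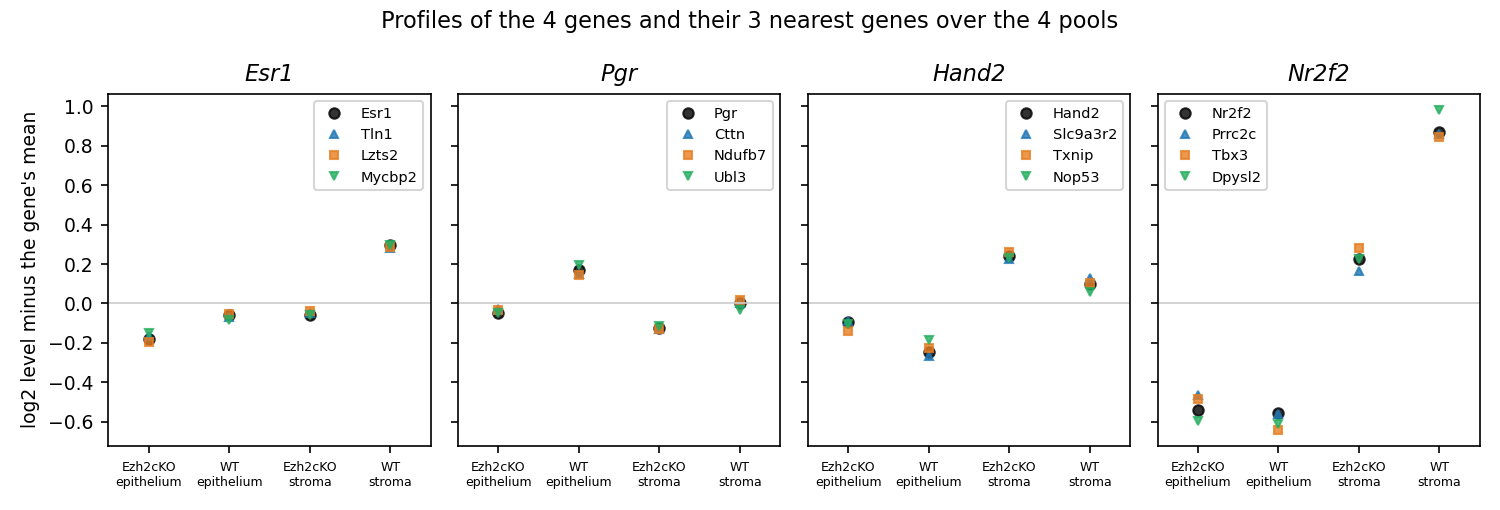
Log2 level minus the gene's own mean over the 4 pools (y axis) for each member (black circles) and its 3 nearest genes (coloured symbols). Nr2f2 and its neighbours stand highest in WT stroma, at 0.87 for Nr2f2, whereas the profile of Pgr stays within 0.17 of its mean.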

How the data were processed

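Spatial libraries were made from uterine sections of 4 Ezh2cKO and 4 WT mice, per the labels' protocols. Per the submitters' processing notes, reads were placed on GRCm38. Neither the aligner nor the test behind the p-values is given in the sources used here. Per the file headers, each deposited table has columns for the average of each pool, a log2 fold change and an adjusted p-value (FDR). The averages behave as pooled UMIs over summed size factors. A gene is listed only with an average above 1 in either group of its table, so listing favours weakly captured genes that are high in 1 pool.

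In the authors' deposited log2 fold change, each pool enters as its UMI sum plus 1 over its size factor sum plus 1. Solving for these by least squares gave sums within 0.001 of whole numbers for all genes, and no sum differed between tables. Folds are ratios of scaled sums with no pseudocount and exact Clopper-Pearson intervals; levels have exact Poisson intervals. The steps were tested on simulated data. No p-value was computed, as each group is 1 pool. The median UMIs per listed gene were 94 to 135 per pool.

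The members, 5 pathway lists and 5 marker lists were chosen with earlier results of these data known. A gene of the nuclear receptor list is not reported here. The text names the members, up to 6 called genes per pathway list by smallest adjusted p, Krt8, Dcn and Acta2 among markers, and 3 nearest profiles per member; other genes are said to be outside this rule or are given for their place in the genome. Of 5828 gene IDs, 5826 matched GENCODE release M21. Scripts used Python 3.11.15, NumPy 2.4.6, SciPy 1.17.1, pandas 2.3.3 and matplotlib 3.10.9.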

Additional observations from a re-analysis of the deposited data

How the results depend on the processing

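At an adjusted p of 0.01, 0 of 4 members were called between compartments in Ezh2cKO, against 1 at 0.05, so that the call of Nr2f2 there was lost; its call in WT stayed. Pathway genes called at 0.01 numbered 0 against 1 between genotypes in epithelium and 1 against 2 between genotypes in stroma. Without the lowest 25% of genes by level they numbered 0 between genotypes in stroma, and 12 against 20 between compartments in WT. The 3 other scalings (the authors' log2 with its pseudocount, centring on the median gene, and totals over the 1167 genes in all 4 tables) gave 48 member ratios, of which 47 kept their direction and 1 did not. That was Nr2f2 between genotypes in epithelium, with a log2 ratio of 0.02 as reported and -0.05 with scaling by totals. Under scaling by totals the order of neighbouring pools with overlapping intervals changed for Esr1 and Nr2f2, while the neighbours with separate intervals numbered 1 for Esr1 and 2 for Nr2f2 as before. No paired analysis was possible because each pool merges 4 animals, which also kept single replicates from being left out. Depth limits Pgr and Hand2 most, which had 81 to 257 UMIs per pool.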
